A study of Mus musculus with 6 samples.

Results

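The genes described here encode heat shock proteins and chaperones of the endoplasmic reticulum (ER), measured by RNA sequencing in macrophages sorted from mouse calf muscle. Members were taken by name, as the rows of the deposited count table whose symbol equals one of 37 listed genes. All 37 were found among the 55353 rows of the table, and all 37 passed the filter on low counts that left 14987 genes for testing. Of the 37, 18 act in the cytosol, 3 in mitochondria and 16 in the ER.

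The muscle was taken 3 days after hindlimb ischemia, an injury that cuts off blood flow to the leg. There were 3 libraries from mice whose genotype label names a knockout of Pfkfb3 (KO) and 3 from mice with the label WT. The enzyme PFKFB3 makes a signalling sugar that speeds up glycolysis. The design text writes EC beside the gene and the title of the series names endothelial cells, which line blood vessels, but no cell type stands in the genotype label. No label used here says which promoter drives the recombination. Animals of both groups carried the strain label 129S1/Sv * 129X1/SvJ * C57BL/6 * CBA and were given tamoxifen, 1 mg a day for 5 days in a row, then left for at least 7 days before the experiments. Age and sex are not labelled. Each sample held 7000 to 50000 sorted cells. Whether replicates are separate animals is not labelled. The p-values below thus set the group difference only against the variation between these libraries, which may in part be technical.

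Chaperones bind unfolded protein and help it reach its shape. In the cytosol, HSP70 proteins work with J-domain proteins that bring substrates and with nucleotide exchange factors that release them, HSP90 proteins finish the folding of kinases and receptors, and the ring complex TRiC folds actin and tubulin. When unfolded protein builds up there, the transcription factor HSF1 binds heat shock elements and raises inducible chaperone genes. The ER has its own set, led by the HSP70 protein BiP. Unfolded protein in the ER activates the sensors IRE1, PERK and ATF6. IRE1 splices the messenger RNA of XBP1, and XBP1 and ATF6 act through ER stress response elements in the promoters of ER chaperone genes. Macrophages secrete cytokines, lipid carriers and matrix proteins, all of which fold in the ER.

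Values are given as CPM, which are counts scaled to library size by the TMM method. Total counts ran from 18853712 to 21070130 in the KO libraries and from 21029637 to 29060584 in the WT libraries, and the 37 members held 94483 to 165626 and 233837 to 355406 of these counts. In the KO libraries, the 6 rows with most counts, Gm23935 first, held 40.5% to 52.6% of the total, against 19.8% to 22.6% in the WT libraries. Pfkfb3 itself was at 55.5, 59.3 and 160 CPM in KO replicates 1 to 3, against 70.9, 101 and 82.4 CPM in WT replicates 1 to 3 (log2 fold change 0.11, adjusted p = 0.892). If the deletion is endothelial, the level in macrophages is no check of it. Xist reached 154 CPM in KO replicate 1 and 171 CPM in KO replicate 2 but only 0.465 CPM or less elsewhere, and Ddx3y on the Y chromosome had the opposite pattern. Macrophage markers were abundant, at a summed 10300 to 11000 CPM in KO and 6790 to 9630 CPM in WT libraries. Of these 10 markers Csf1r (log2 fold change 1.05) and C1qa (1.79) were called higher and Cd68 (-0.74) lower. Summed markers of some other cells moved with the groups. The 10 satellite cell and myoblast markers summed to 39.0 to 58.3 CPM in KO and 7.37 to 11.1 CPM in WT, and the 7 fibroblast markers to 133 to 183 CPM and 10.0 to 39.1 CPM. The 7 endothelial markers summed to 21.4 to 46.3 CPM in KO and 58.7 to 90.6 CPM in WT, and the 7 neutrophil markers to 2.35 to 5.42 CPM and 8.10 to 22.5 CPM, with Ly6g at 0 throughout. Most of the fibroblast sum was Col1a1, Col1a2 and Col3a1, and most of the myoblast sum Acta1 and Des. Of single genes, 3 myoblast and 3 fibroblast markers were called higher, and 3 endothelial markers and 1 neutrophil marker lower. Myod1 (log2 fold change 0.29), Dcn (0.78) and Kdr (-0.01) were not called, with overlapping groups. For plasma cells, which are rich in ER chaperones, the 9 B and plasma cell markers overlapped, at 15.5 to 50.1 CPM in KO and 18.1 to 42.6 CPM in WT, with Mzb1 at 0 in all libraries and Jchain at 0 in the KO libraries. Most of that sum was Sdc1. The plasma cell gene Tnfrsf17 had 15, 9 and 10 counts in KO and 2, 0 and 1 counts in WT libraries, too few to be tested, and Cd79b was higher in all KO libraries without being called (log2 fold change 1.05). The part of these other cells in the values below was not tested. In bulk samples, fewer cells of a type and less RNA per cell cannot be told apart.

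Few of the chaperone genes were called different between KO and WT libraries. KO replicates 1 and 2 differed from all WT libraries in Xist and Ddx3y, so genotype and sex cannot be told apart in these 2 libraries. KO replicate 3 was like the WT libraries in both genes (Xist 0.129 CPM, Ddx3y 63.9 CPM), but 1 library is too few to separate genotype from sex. Manf and Dnaja1 fell and Herpud1 rose in macrophages from KO muscle, and the other 34 members were not called (edgeR quasi-likelihood test, Benjamini-Hochberg adjusted p under 0.05 over all tested genes). The 3 called members stand against 6.64% of all tested genes called, 4.39% higher and 2.25% lower, so the share called among chaperone genes is close to the background. An unadjusted p under 0.05 was reached by 12 of 37 members, 10 of them among the 16 ER genes, a larger share than the 23.5% of all tested genes. In 14 of 37 members, 10 of them among the 16 ER genes, all KO libraries lay below all WT libraries, a larger share than the 14.7% of all tested genes. In 1 member all KO libraries lay above, which 16.8% of all tested genes showed. Together these 15 members without overlap stand against 31.5% of all tested genes. The shares are a description with no test. The median log2 fold change was -0.25 over the members and 0.01 over all tested genes. Among ER members it was -0.45, and among cytosolic and mitochondrial members -0.22. The count of called members depends on single libraries. It was 1 without KO replicate 1, 0 without KO replicate 2 and 3 without KO replicate 3, and it was 1 without WT replicate 1, 2 or 3.

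**Figure D1:**
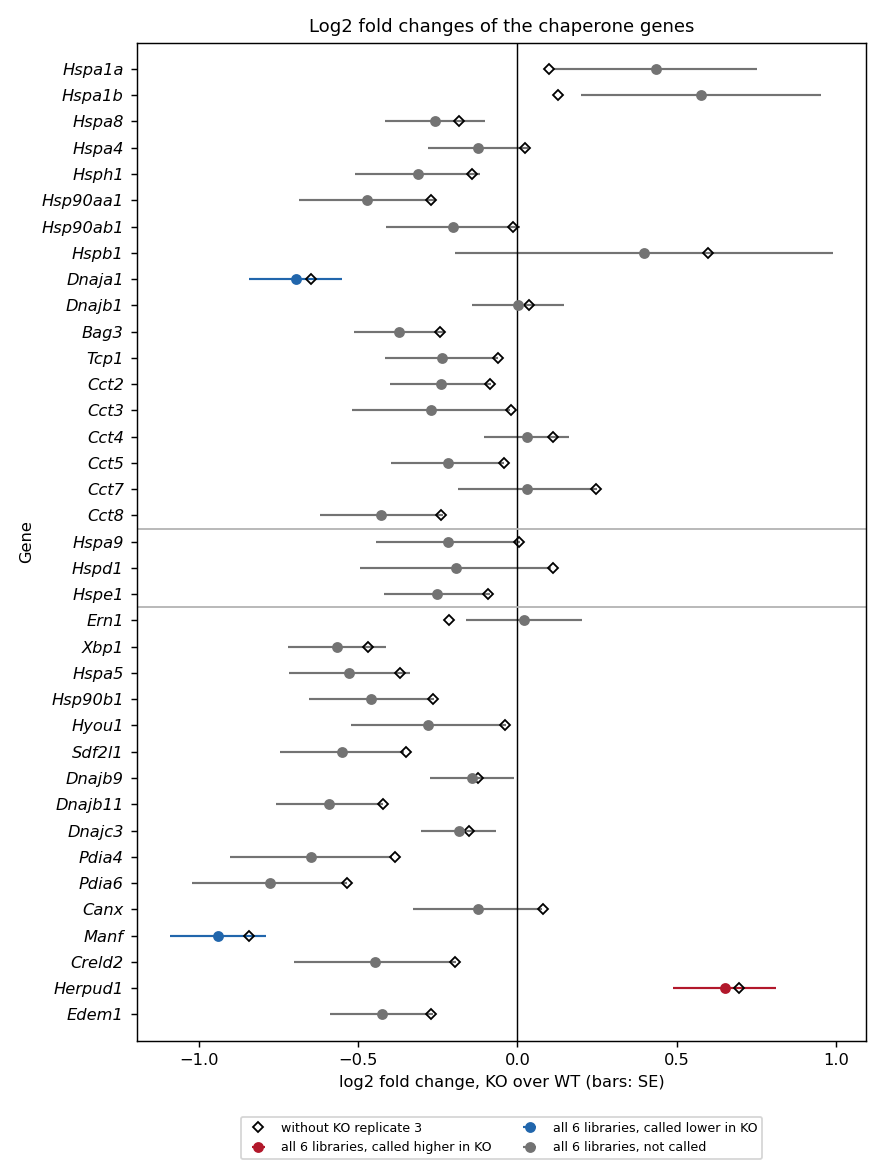
Log2 fold change of each of the 37 chaperone genes, KO over WT, with its standard error (bars) from the fit over all 6 libraries, in the order cytosol, mitochondrion and ER from top to bottom. Diamonds give the value without KO replicate 3. Manf and Dnaja1 (called lower) and Herpud1 (called higher) keep their sign and their call, and most other points lie nearer to 0 or past it.

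The largest fall among the members was that of Manf, which encodes a small protein of the ER lumen that is released under ER stress and protects cells from it. Manf was at 34.6, 32.4 and 27.3 CPM in KO replicates 1 to 3, against 53.4, 58.1 and 69.3 CPM in WT replicates 1 to 3. The groups did not overlap. Means were 31.4 ± 3.78 CPM in KO and 60.3 ± 8.17 CPM in WT (n = 3 each, SD), a log2 fold change of -0.94 with SE 0.15 and an adjusted p of 0.0115. Its call was lost without KO replicate 2 (adjusted p = 0.0669) and held in the other 5 leave-outs. Manf lies on chromosome 9 at 106838312 to 106891979 (GRCm38, GENCODE M21), and 4.71% of its exonic bases overlap an antisense gene and 4.14% the gene Dcaf1 on the opposite strand. Whether counting used strand is not given in the sources used here, so a share of these reads is uncertain.

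Herpud1 moved the other way. It encodes an ER membrane protein that helps carry misfolded proteins out of the ER for degradation. Its level was 48.6, 48.1 and 44.7 CPM in KO replicates 1 to 3, against 34.4, 32.3 and 23.4 CPM in WT replicates 1 to 3. All KO libraries were higher than all WT libraries. The means were 47.1 ± 2.14 CPM in KO and 30.0 ± 5.79 CPM in WT (n = 3 each, SD), a log2 fold change of 0.65 with SE 0.16. The adjusted p of 0.0478 is close to the threshold. It was above 0.05 without KO replicate 1 (0.152) or 2 (0.188) and without WT replicate 1 (0.0547), 2 (0.127) or 3 (0.103), and it was 0.0541 with DESeq2 size factors and 0.895, at a log2 fold change of 0.04, with library sizes alone. Herpud1 lies on chromosome 8 at 94386438 to 94395377, and none of its transcript sequence is shared with another gene in windows of 50 bases. Edem1, which draws misfolded glycoproteins toward the same degradation route, was at 248, 237 and 170 CPM in KO and 291, 279 and 310 CPM in WT (adjusted p = 0.152). The 2 degradation genes of the list thus had log2 fold changes of opposite sign, 0.65 for Herpud1 and -0.43 for Edem1.

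Among the upstream regulators, Xbp1, the transcription factor that IRE1 activates by splicing, was at 62.4, 53.1 and 47.3 CPM in KO replicates 1 to 3, against 92.2, 78.1 and 70.8 CPM in WT replicates 1 to 3. The groups did not overlap, with means of 54.3 ± 7.59 CPM in KO and 80.4 ± 10.9 CPM in WT (n = 3 each, SD). The log2 fold change was -0.57 (SE 0.15, adjusted p = 0.0619), short of the threshold. Of 16 alternatives 5 called Xbp1 lower, DESeq2 (adjusted p = 0.0187) and protein-coding genes alone (0.0399) among them. The others were library sizes alone, no count filter and limma-voom with sample weights, which each called many more genes over the whole table. Of the 6 leave-outs of a single library 0 called Xbp1 (adjusted p up to 0.215). Counts per gene do not separate spliced from unspliced Xbp1. Ern1, which encodes IRE1 itself, was at 47.1, 50.8 and 75.9 CPM in KO and 58.9, 57.1 and 55.3 CPM in WT. KO replicates 1 and 2 lay below and KO replicate 3 above all WT libraries, and the log2 fold change was 0.02 (adjusted p = 0.963), or -0.22 without KO replicate 3.

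Among the members, BiP, the ER J-domain proteins, Sdf2l1 and Hyou1 were not called. Hspa5, the gene of BiP, was at 872, 758 and 571 CPM in KO replicates 1 to 3, against 911, 1100 and 1161 CPM in WT replicates 1 to 3 (log2 fold change -0.53, SE 0.19, adjusted p = 0.137). The highest KO library was just under the lowest WT library. Dnajb11, a J-domain protein that brings unfolded chains to BiP, was at 108, 104 and 71.9 CPM in KO and 129, 150 and 147 CPM in WT (-0.59, adjusted p = 0.0722). Sdf2l1, which forms a complex with Dnajb11 and keeps it working with BiP, was at 53.1, 54.7 and 33.3 CPM in KO and 60.5, 73.6 and 72.7 CPM in WT (-0.55, adjusted p = 0.131). In all 3 genes the groups did not overlap and KO replicate 3 was the lowest library. The others of these differed less. Dnajb9, another J-domain protein, Dnajc3, a J-domain protein that also inhibits the kinase PERK, and Hyou1, the nucleotide exchange factor of BiP, had log2 fold changes of -0.14, -0.18 and -0.28, with adjusted p from 0.388 to 0.566.

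Hsp90b1, the ER form of HSP90, which folds Toll-like receptors and integrins, was at 685, 654 and 425 CPM in KO replicates 1 to 3, against 743, 862 and 818 CPM in WT replicates 1 to 3 (log2 fold change -0.46, SE 0.20, adjusted p = 0.20). The disulfide isomerases form and rearrange disulfide bonds in new proteins. Pdia6 was at 222, 213 and 120 CPM in KO and 250, 351 and 349 CPM in WT (-0.78, SE 0.24, adjusted p = 0.0925). Pdia4 was at 249, 218 and 118 CPM in KO and 256, 331 and 330 CPM in WT (-0.65, SE 0.26, adjusted p = 0.168). For all 3 genes the groups did not overlap, yet KO replicates 1 and 2 were close to WT replicate 1 and KO replicate 3 stood well below both. Canx, the lectin chaperone calnexin, was at 758 ± 197 CPM in KO and 826 ± 11.9 CPM in WT (n = 3 each, SD; adjusted p = 0.761), with KO replicates 1 and 2 above all WT libraries at 895 and 846 CPM. Creld2, a secreted ER stress protein, was at 28.8 ± 9.39 CPM in KO and 39.2 ± 7.82 CPM in WT (adjusted p = 0.331).

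**Figure D2:**
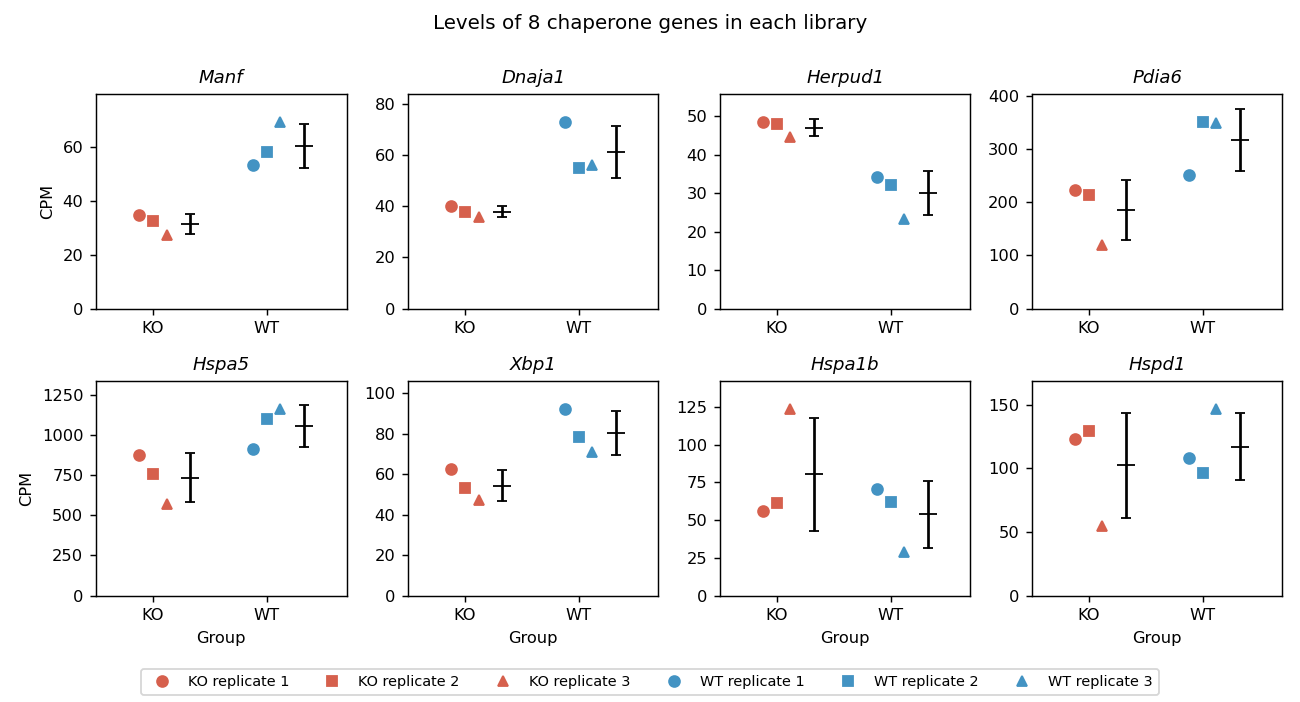
CPM of 8 chaperone genes in each library, with a symbol for each replicate (circle 1, square 2, triangle 3) and the mean ± SD of each group beside them. KO libraries are below WT libraries without overlap for Manf, Dnaja1, Pdia6, Hspa5 and Xbp1 and above them for Herpud1, while for Hspa1b and Hspd1 KO replicate 3 stands apart from the other KO libraries in opposite directions.

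ER stress response elements were searched for in the promoters of the members, since most ER members had lower values in KO libraries while Herpud1 rose. RefSeq windows of 300 bases (GRCm38.p6, 250 bases before to 50 after a gene's start) were at hand for 30 of the 37 members, 16 of them cytosolic or mitochondrial and 14 of them ER genes. Manf, Hyou1, Cct4, Hsp90aa1, Hsp90ab1, Hspa8 and Hspa9 had no window and were not searched. The element ERSE, searched as CCAAT and CCACG with 9 bases between them on both strands, was in the windows of 6 of 14 ER members and of 0 of 16 cytosolic or mitochondrial members, against 0.137% of all 27025 genes with a window. The shorter element ERSE-II, ATTGG and CCACG with 1 base between them on both strands, was in those of Herpud1 and Dnajb11, against 0.0444% of all genes. No member searched had both. The element TGACGTGG was in none of these windows, against 0.714% of all genes. A match describes letters, not binding. The stretches below hold every such element found in the members searched, those of Herpud1 and Dnajb11 last. Each is read 5′ to 3′ on the gene's strand, with the element, or its reverse complement, in capitals.
Hspa5, chr2:34772020-34772048, plus strand: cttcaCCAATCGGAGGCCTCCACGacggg
Hsp90b1, chr10:86705618-86705676, minus strand: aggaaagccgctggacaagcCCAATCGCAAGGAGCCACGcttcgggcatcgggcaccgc
Hsp90b1, chr10:86705513-86705571, minus strand: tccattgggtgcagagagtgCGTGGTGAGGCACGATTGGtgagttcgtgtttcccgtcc
Pdia6, chr12:17266471-17266529, plus strand: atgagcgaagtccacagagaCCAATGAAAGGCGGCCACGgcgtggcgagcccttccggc
Dnajc3, chr14:118937807-118937865, plus strand: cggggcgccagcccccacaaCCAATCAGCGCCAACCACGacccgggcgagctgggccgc
Creld2, chr15:88819500-88819558, plus strand: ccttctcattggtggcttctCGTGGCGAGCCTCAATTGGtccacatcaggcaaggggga
Canx, chr11:50325780-50325838, minus strand: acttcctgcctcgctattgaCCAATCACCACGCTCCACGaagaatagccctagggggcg
Herpud1, chr8:94386357-94386407, plus strand: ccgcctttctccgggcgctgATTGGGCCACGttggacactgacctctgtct
Dnajb11, chr16:22857843-22857871, plus strand: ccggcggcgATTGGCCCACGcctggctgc
The 6 genes with ERSE had log2 fold changes from -0.78 (Pdia6) to -0.12 (Canx), none of them called. The 2 genes found with ERSE-II differed in sign, at 0.65 for Herpud1 and -0.59 for Dnajb11. The element of Herpud1 ends 42 bases before its start, whereas that of Dnajb11 lies within the first bases after its start.

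In the cytosol, Dnaja1 was the only member called. It encodes a J-domain co-chaperone that delivers substrates to HSP70. Dnaja1 was at 39.9, 37.9 and 35.6 CPM in KO replicates 1 to 3, against 72.9, 54.8 and 56.1 CPM in WT replicates 1 to 3, without overlap. The means were 37.8 ± 2.17 CPM in KO and 61.3 ± 10.1 CPM in WT (n = 3 each, SD), a log2 fold change of -0.70 with SE 0.15 and an adjusted p of 0.0281. The adjusted p was above 0.05 without KO replicate 1 (0.0806) or 2 (0.125) and without WT replicate 1 (0.0617), 2 (0.0724) or 3 (0.0524). Dnaja1 lies on chromosome 4 at 40722150 to 40737149. Of its transcript windows of 50 bases, 20.6% also occur in other genes, 10.0% in the model Gm15542 alone, and 7.05% of its exonic bases overlap Smu1 on the opposite strand, so its counts are uncertain to that extent. Dnajb1, the J-domain protein that the heat shock response induces, was at 30.2 ± 1.69 CPM in KO and 30.2 ± 4.12 CPM in WT (n = 3 each, SD; adjusted p = 0.996).

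The inducible HSP70 genes Hspa1a and Hspa1b had their highest value in KO replicate 3 and their lowest in WT replicate 3. Hspa1a was at 42.0, 45.9 and 79.2 CPM in KO replicates 1 to 3, against 55.6, 43.3 and 24.7 CPM in WT replicates 1 to 3 (log2 fold change 0.43, SE 0.32, adjusted p = 0.458). Hspa1b was at 56.1, 61.1 and 124 CPM in KO and 70.8, 62.2 and 28.6 CPM in WT (0.58, SE 0.38, adjusted p = 0.399). The groups overlapped in both genes. These neighbours on chromosome 17 are near copies, with 58.8% of the 50-base windows of Hspa1a found in Hspa1b and 62.3% of those of Hspa1b in Hspa1a, and their promoter windows are identical at 296 of 300 bases. How the counting split reads between them is not given in the sources used here, so each value alone is uncertain. Hspa8, the constitutive HSP70, was at 1299, 1302 and 1123 CPM in KO and 1542, 1322 and 1587 CPM in WT. Its log2 fold change was -0.26 (adjusted p = 0.361), and 39.4% of its windows occur in other genes, most of them in the model Gm15459.

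Neither cytosolic HSP90 gene was called. Hsp90aa1, the inducible form, was at 214, 202 and 129 CPM in KO replicates 1 to 3, against 224, 225 and 307 CPM in WT replicates 1 to 3 (log2 fold change -0.47, SE 0.21, adjusted p = 0.224). The groups did not overlap, and 47.5% of its 50-base windows occur in other genes, most of them in the model Gm12346. Hsp90ab1, the constitutive form, was at 1509, 1475 and 954 CPM in KO and 1400, 1393 and 1739 CPM in WT (-0.20, adjusted p = 0.611), with KO replicates 1 and 2 inside the WT range. Bag3, a co-chaperone that links HSP70 to autophagy, was at 69.6, 75.3 and 55.0 CPM in KO and 88.0, 85.6 and 84.9 CPM in WT. All KO libraries were lower, at a log2 fold change of -0.37 and an adjusted p of 0.152. The exchange factors Hsph1 and Hspa4 had log2 fold changes of -0.31 and -0.12 (adjusted p = 0.378 and 0.686). Hspb1, a small heat shock protein that binds unfolded chains without ATP, was close to the lower limit, with 22, 24 and 14 counts in KO and 43, 33 and 11 counts in WT, and 50.1% of its windows occur in other genes.

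Heat shock elements were searched for in the same windows, as the pair of units GAANNTTC or TTCNNGAA and as a triple on both strands, GAA, TTC and GAA with 2 bases between neighbours, which contains such pairs. A pair was in the windows of 10 of 16 cytosolic or mitochondrial members and of 0 of 14 ER members, against 17.0% of all genes. The triple was in those of Hspd1, Hspe1 and Hsph1, against 0.662% of all genes. The element of Dnaja1 lies before the RefSeq start but inside the gene span given above, which is from GENCODE. The following stretches show the element of the called member Dnaja1, those of the inducible HSP70 genes, and the element between the starts of Hspe1 and Hspd1.
Dnaja1, chr4:40722333-40722362, plus strand: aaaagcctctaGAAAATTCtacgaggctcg
Hspa1a, chr17:34972233-34972280, minus strand: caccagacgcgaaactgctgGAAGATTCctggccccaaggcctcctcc
Hspa1b, chr17:34959315-34959362, minus strand: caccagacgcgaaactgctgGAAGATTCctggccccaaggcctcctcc
Hspe1, chr1:55088053-55088082, plus strand: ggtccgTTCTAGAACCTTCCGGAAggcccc
Genes with such a pair had no common direction. Their log2 fold changes ran from -0.70 for Dnaja1, the only one called, to 0.58 for Hspa1b.

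TRiC, a double ring that closes over actin and tubulin as they fold, is represented by 7 subunits, and none was called. Tcp1, Cct2, Cct3, Cct5 and Cct8 had log2 fold changes from -0.43 to -0.22, and Cct4 and Cct7 of 0.03 each, with adjusted p from 0.224 to 0.952. KO replicate 3 was the lowest of the 6 libraries for all 7 subunits. For example, Cct5 was at 218, 208 and 142 CPM in KO and 213, 204 and 244 CPM in WT, so that KO replicates 1 and 2 lay within the WT range. Cct7 was highest in KO replicate 2, at 147 CPM, and lowest in KO replicate 3, at 85.2 CPM. Without KO replicate 3 the log2 fold changes of the 7 subunits ran from -0.24 (Cct8) to 0.25 (Cct7). Cct6a, the subunit outside the list, had a log2 fold change of -0.23 (adjusted p = 0.492).

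The mitochondrial members showed the same order of libraries. Hspd1 and Hspe1 encode the large and small rings of the mitochondrial chaperonin and are read from neighbouring starts on opposite strands. Hspd1 was at 123, 129 and 55.0 CPM in KO replicates 1 to 3, against 108, 96.5 and 147 CPM in WT replicates 1 to 3 (log2 fold change -0.19, SE 0.30, adjusted p = 0.751), and 42.1% of its windows occur in other genes. Hspe1 was at 38.8, 35.0 and 25.7 CPM in KO and 40.0, 36.7 and 41.9 CPM in WT (-0.25, SE 0.17, adjusted p = 0.404). Hspa9, the HSP70 of the mitochondrial matrix, which pulls imported proteins inward, was at 229, 218 and 130 CPM in KO and 193, 207 and 271 CPM in WT (-0.22, SE 0.23, adjusted p = 0.612). In these 3 genes KO replicate 3 was lowest and WT replicate 3 highest, and the groups overlapped.

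**Figure D3:**
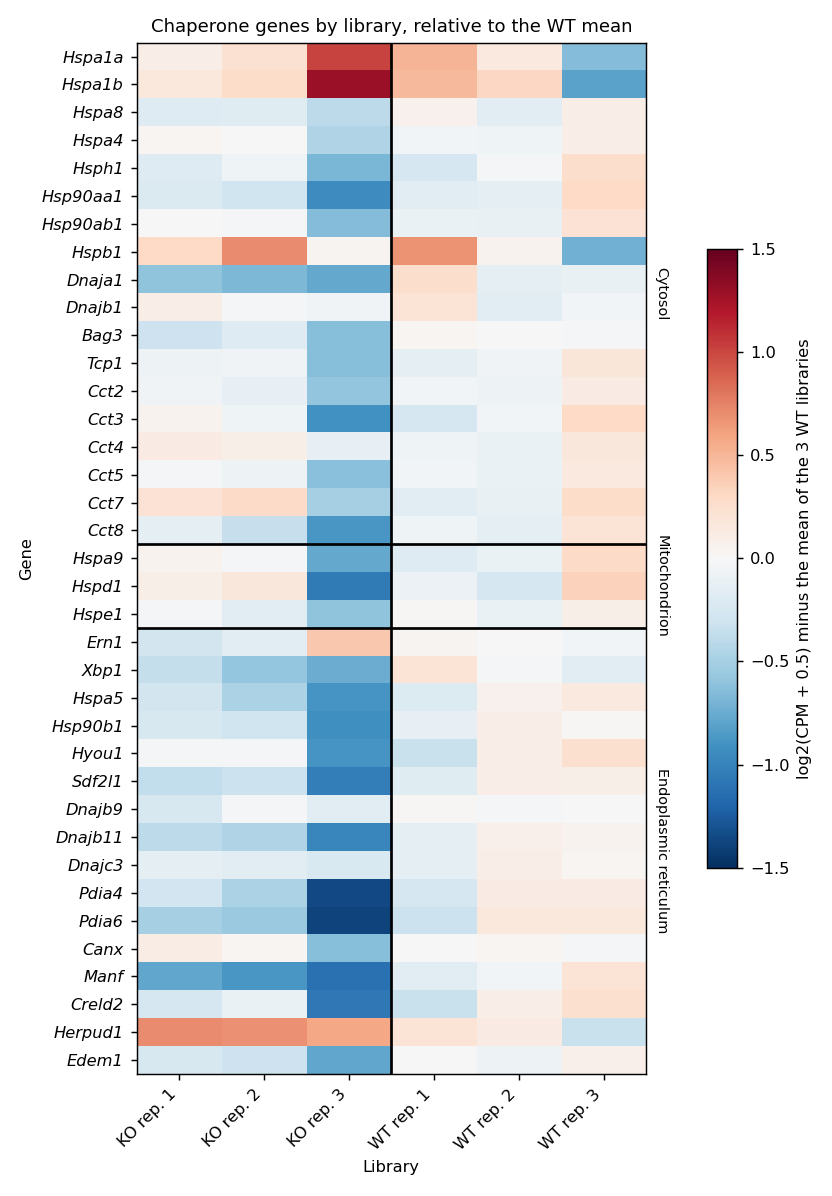
Heat map of the 37 chaperone genes (rows, grouped as cytosol, mitochondrion and ER) in the 6 libraries (columns, KO left of WT). Color gives log2(CPM + 0.5) minus the mean of the WT libraries, from blue (lower) to red (higher). The column of KO replicate 3 is the lowest in 30 of 37 rows, whereas Hspa1a and Hspa1b are highest there, and Manf, Dnaja1 and Xbp1 are lower and Herpud1 higher in all 3 KO columns.

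KO replicate 3 stood apart across the chaperone genes. It was the lowest of the 6 libraries in 30 of 37 members, 17 of 21 cytosolic and mitochondrial and 13 of 16 ER members. Over all tested genes it was the lowest in 25.6%, and over those with a mean of at least 10 CPM in 34.1%. Relative to the mean of KO replicates 1 and 2, the median of the members in KO replicate 3 was -0.51 on the log2 scale, with a range of -1.19 (Hspd1) to 1.07 (Hspa1b), where the median was 0.00 over all tested genes and -0.098 over those with a mean of at least 10 CPM. In KO replicates 1 and 2 the median of the cytosolic and mitochondrial members relative to the WT mean was -0.03, and that of the ER members was -0.27. Both of these libraries lay within the WT range in 12 of 21 cytosolic and mitochondrial members and in 2 of 16 ER members, against 3004 of 14987 tested genes and 1657 of the 7593 with a mean of at least 10 CPM. The cytosolic and mitochondrial share is above that of all genes, while the ER share is close to it or a little lower, a description with no test. In Xist and Ddx3y, KO replicate 3 was like the WT libraries and unlike KO replicates 1 and 2. The part of sex in these values was not tested. With KO replicates 1 and 2 left out, 0 of 37 members were called and 149 genes in all. That fit compares KO replicate 3 with the WT libraries and assumes that it varies as they do.

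Cytosolic and mitochondrial chaperones were set against ER genes within each library. The mean log2(CPM + 0.5) of the 21 cytosolic and mitochondrial members minus that of the 16 ER members was -0.24, -0.20 and -0.16 in KO replicates 1 to 3, against -0.29, -0.55 and -0.44 in WT replicates 1 to 3. All KO values were above all WT values, although the highest WT value lay close to the lowest KO value. The difference averaged -0.20 ± 0.04 in KO and -0.43 ± 0.13 in WT (n = 3 each, SD), which is 0.23 log2 units higher in KO. The ER mean alone was 6.77 ± 0.27 in KO and 7.16 ± 0.09 in WT, and that of the cytosolic and mitochondrial members 6.57 ± 0.23 and 6.73 ± 0.06. This contrast is a description with no test, since a score over chosen genes has none here. It ranged from 0.17 without WT replicate 2 to 0.30 without WT replicate 1, and was 0.21 without KO replicate 3.

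**Figure D4:**
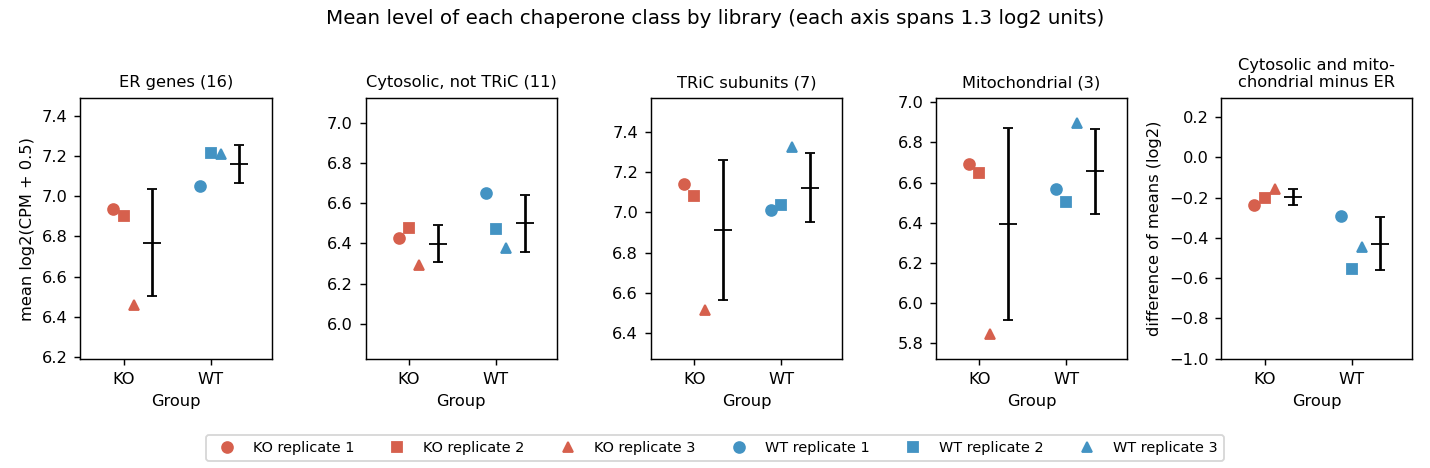
Mean log2(CPM + 0.5) of the 16 ER genes, 11 cytosolic genes other than TRiC, 7 TRiC subunits and 3 mitochondrial genes in each library, and the cytosolic and mitochondrial mean minus the ER mean (right), with the mean ± SD of each group. KO libraries lie below WT libraries for ER genes and above them for the difference, and KO replicate 3 is lowest in the first 4 panels.

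Other genes of the same pathways were counted from lists beside the members. Of 55 further cytosolic and mitochondrial folding genes, all tested, 2 were called higher and 1 lower, where 4.39% and 2.25% of all tested genes were, with a median log2 fold change of -0.13. Without KO replicate 3 the counts were 3 and 2, and in each of the other 5 leave-outs they were 1 and 0. Of 58 tested further ER genes, 0 were called higher and 6 lower with edgeR, with a median of -0.17. DESeq2 called 1 of these ER genes higher and 9 lower, and 24 of the 58 had an unadjusted p under 0.05. Over all tested genes these shares were 4.39% higher, 2.25% lower and 23.5% with an unadjusted p under 0.05. The 6 ER genes that fell were Sec63, Sec61g, Sec61b, Spcs2, Ssr3 and Nucb2. Sec61b and Sec61g are subunits of the channel through which new chains pass, and Sec63 couples that channel to BiP. Sec63 was at 74.7, 71.1 and 70.9 CPM in KO replicates 1 to 3, against 107, 107 and 105 CPM in WT replicates 1 to 3 (log2 fold change -0.56, SE 0.11, adjusted p = 0.0214). Sec61g was at 9.28, 13.1 and 12.9 CPM in KO and 20.8, 22.6 and 21.0 CPM in WT (-0.87, adjusted p = 0.0237), and Sec61b at 25.0, 24.0 and 24.6 CPM in KO and 40.7, 36.8 and 33.1 CPM in WT (-0.59, adjusted p = 0.0346). Spcs2, of the signal peptidase, Ssr3, of the translocon-associated complex, and Nucb2, a calcium-binding protein, had log2 fold changes of -0.66, -0.50 and -0.61. Further subunits of the same complexes were not called, among them Sec61a1 (-0.26, adjusted p = 0.430), Sec62 (0.02, adjusted p = 0.935), Ssr1 (-0.56, adjusted p = 0.104), Ssr2 (-0.16, adjusted p = 0.743) and Spcs3 (-0.40, adjusted p = 0.158), which were named after their values were seen. In KO libraries all 6 were lower than in every WT library, and KO replicate 3 was close to KO replicate 2 for Sec63, Sec61b and Sec61g. All 6 calls were lost without KO replicate 1 or 2 and without WT replicate 1 or 2, and 1 was left without WT replicate 3; 6 genes of this list were called lower without KO replicate 3.

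The sensors and effectors of the ER stress response outside the members were not called. Atf6 and Eif2ak3, the gene of PERK, had log2 fold changes of -0.07 and -0.18 (adjusted p = 0.823 and 0.458). Ddit3, the transcription factor CHOP of prolonged ER stress, was at 11.9, 8.99 and 13.9 CPM in KO and 13.4, 12.4 and 13.0 CPM in WT (adjusted p = 0.669). Calr, the lumenal partner of calnexin, was at 1349, 1383 and 828 CPM in KO and 1287, 1598 and 1577 CPM in WT (adjusted p = 0.414). In the cytosol, Hsf1, the master regulator of the heat shock response, was at 14.1, 18.7 and 21.4 CPM in KO and 16.2, 18.2 and 19.99 CPM in WT (adjusted p = 0.987). Hspb8, a small heat shock protein abundant in muscle, rose to 1.60, 2.14 and 1.87 CPM in KO, against 0.233, 0.192 and 0.264 CPM in WT (log2 fold change 3.00, SE 0.43, adjusted p = 0.00819). Summed myoblast markers were higher in the same KO libraries, and their part in this value was not tested. Dnajb5, a J-domain protein, rose (0.72, adjusted p = 0.0395), and Pfdn1, a subunit of prefoldin, which hands actin and tubulin to TRiC, fell (-0.76, adjusted p = 0.0252). The other prefoldin subunits of the list were not called. Pfdn2, Pfdn4, Pfdn6 and Vbp1 had log2 fold changes of -0.18, -0.48, -0.03 and -0.39, and Pfdn5 of 0.39.

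Levels were compared between genes per kilobase of the principal transcript. Hspa8 and Hsp90ab1 led the members, at 518 ± 42.7 and 521 ± 123 CPM per kilobase in KO and 620 ± 59.1 and 599 ± 78.5 in WT (n = 3 each, SD), and did not differ beyond their spread. The ER chaperones Hsp90b1, Hspa5 and Canx came next, at 208 ± 50.4, 200 ± 41.4 and 177 ± 46.1 in KO and 286 ± 21.4, 288 ± 35.5 and 193 ± 2.79 in WT. The TRiC subunits lay between 38.0 (Cct4) and 102 (Cct5) in KO and between 37.2 (Cct4) and 119 (Cct5) in WT. The rings of the mitochondrial chaperonin were level with each other, Hspd1 at 42.2 ± 17.0 and Hspe1 at 42.9 ± 8.67 in KO, and 48.3 ± 10.8 and 51.1 ± 3.40 in WT. The inducible HSP70 genes had lower means, though in KO the SD range of Hspa1b overlapped those of Cct4, Hspd1 and Hspe1. Hspa1a was at 18.8 ± 6.89 and Hspa1b at 28.6 ± 13.4 in KO, and 13.9 ± 5.25 and 19.2 ± 7.95 in WT. Hspb1 was the lowest member, at 1.40 ± 0.456 in KO and 1.07 ± 0.747 in WT.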

How the data were processed

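The authors deposited raw counts per gene symbol for the 6 libraries. Per the submitters' processing notes, Trim Galore, FastQC, HISAT2, featureCounts and DESeq were used with GRCm38. Not given there are the strand setting, the annotation and the treatment of reads with several matches. Per the labels' protocols, total RNA was amplified with a low-input kit, which can raise the spread of weakly expressed genes. In the table, 26 rows whose symbols had become dates were left out (0.0913% to 0.163% of counts).

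The other counts were tested with edgeR 4.0.16 in R 4.3.3 (TMM factors, filterByExpr, quasi-likelihood test, two-sided, Benjamini-Hochberg over 14987 genes), KO over WT. SE is the absolute log2 fold change divided by the square root of F. 1 count was worth 0.0274 to 0.0713 CPM. Class means used log2(CPM + 0.5). Positions, transcript lengths and overlaps came from GENCODE M21, promoter windows from RefSeq. Alternatives used DESeq2 1.42.0 and limma 3.58.1. Values of every library were given for members called or with an unadjusted p under 0.05, for the main HSP70 and HSP90 genes, Xbp1 and Ern1, with others added as examples. All called genes of both other folding lists were named. Members and lists were chosen with earlier results of these data known.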

Additional observations from a re-analysis of the deposited data

How the results depend on the processing

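Of 592 single-gene values under the alternatives, 474 kept their direction and side of the threshold, 21 lost a call, 49 gained one with the same sign and 48 changed sign. Of those that changed sign, Dnajb1, Cct4, Cct7 and Ern1 were called lower with library sizes alone. The contrast of cytosolic and mitochondrial with ER genes stayed within 0.171 to 0.301 throughout. Single replicates left out gave 189 to 1652 called genes, 0 to 1 members called higher and 0 to 2 lower, 1 to 3 other cytosolic and mitochondrial genes higher and 0 to 2 lower, and 0 to 3 other ER genes higher and 0 to 6 lower.

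Against 995 called genes, DESeq2 called 1870, with 5 members lower, 3 other cytosolic and mitochondrial genes lower and 1 other ER gene higher. DESeq2 size factors left 0 members higher and 2 other cytosolic and mitochondrial genes lower, as did protein-coding genes alone for that list (2). Without a count filter 1957 genes were called, with 2 members higher and 9 lower, 1 and 3 genes of the other cytosolic and mitochondrial list, and 1 other ER gene higher. limma-voom with sample weights called 4850 genes, with 12 members lower, 8 and 8 of the other cytosolic and mitochondrial list, and 8 higher and 15 lower of the other ER list. Library sizes alone shifted the median of all genes to -0.60, and 6308 genes were called, 0 members higher and 33 lower, 1 and 38 of the other cytosolic and mitochondrial list, and 45 other ER genes lower. With KO replicates 1 and 2 left out, 149 genes and 0 members, 0 other cytosolic and mitochondrial and 0 other ER genes were called. Summing them as 1 sample, chosen after seeing the data, gave 282 genes, 0 members higher and 1 lower, 1 and 0 of the other cytosolic and mitochondrial list, and 0 other ER genes lower. The replicate block gave 267 genes, 0 members, 1 and 0 of the other cytosolic and mitochondrial list and 0 other ER genes lower. Same-numbered libraries correlated at 0.00301, -0.0868 and -0.144. These values show no pairing by number, but so few libraries cannot exclude one. The causes were not tested.

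Signs changed in members that were not called with all 6 libraries and TMM. With DESeq2 size factors, the DESeq2 test and protein-coding genes alone, the log2 fold change of Dnajb1 was -0.012, -0.012 and -0.013. Library sizes alone gave -0.18 for Hspa1a, -0.037 for Hspa1b, -0.23 for Hspb1, -0.61 for Dnajb1, -0.58 for Cct4, -0.59 for Cct7 and -0.59 for Ern1. limma-voom gave 0.034 for Hspa4, 0.024 for Hsp90ab1, 0.028 for Hspa9, 0.24 for Hspd1, -0.18 for Ern1 and 0.017 for Canx. Without a filter Dnajb1 was at -0.046, Cct4 at -0.018, Cct7 at -0.012 and Ern1 at -0.032, and with the replicate block Ern1 at -0.011. With KO replicates 1 and 2 left out Hspb1 was at -0.13, Dnajb1 at -0.11, Cct4 at -0.19 and Cct7 at -0.57, and with them summed Dnajb1 was at -0.029, Cct4 at -0.027 and Cct7 at -0.10. Leaving out single replicates gave -0.083 to 0.11 for Dnajb1, -0.041 to 0.12 for Cct4, -0.12 to 0.25 for Cct7, -0.22 to 0.023 for Hspa4, -0.38 to 0.0059 for Hspa9, -0.41 to 0.11 for Hspd1, -0.22 to 0.12 for Ern1, -0.28 to 0.082 for Canx and -0.023 to 1.02 for Hspb1. With 3 libraries a group and the spread between them, small differences were not detectable. Hspb1, at 11 to 43 counts, was limited by depth as well.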

Other observations

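Early response genes, which cells switch on within minutes of a stimulus and which tissue dissociation also raises, were read beside the chaperone genes. Of 17 such genes 1 was called higher and 4 lower in KO libraries, where 4.39% and 2.25% of all tested genes were, with a median log2 fold change of -0.26. Ier2 was at 113, 121 and 103 CPM in KO replicates 1 to 3, against 77.7, 63.1 and 48.3 CPM in WT replicates 1 to 3 (log2 fold change 0.84, adjusted p = 0.0282). Klf4 and Klf2, transcription factors of macrophages and vessel walls, Klf6 and the stress factor Atf3 were called lower. Their log2 fold changes were -1.28, -1.03, -0.62 and -0.60, with adjusted p of 0.0154, 0.0287, 0.0227 and 0.0494. The value of Atf3 is close to the threshold. The summed level of all 17 genes was 5900 to 7740 CPM in KO and 6960 to 9390 CPM in WT libraries.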
